A study of Mus musculus with 9 samples.

Results

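The genes described here are mouse genes whose symbol is Zfp followed by a number, Zfp36 left out, with a summed count of at least 200 over the 3 input libraries. The table of estimated counts holds 54325 gene symbols, of which 373 are such Zfp genes, and 130 of these reached the minimum. They are called members below. Of all symbols, 8308 reached the same minimum. The members were chosen by their input counts, so input levels are given as a description, and the comparison of the p-UPF1 immunoprecipitation (IP) with input, which uses the same input libraries, is set beside all genes tested and beside all genes with the same minimum.

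The libraries come from N2A mouse neuroblastoma cells. Okadaic acid at 200 nM for 2 h was given to the cells of all 3 groups. The groups are input RNA taken without an IP, RNA recovered with rabbit IgG (rIgG IP) and RNA recovered with an antibody to phosphorylated UPF1 (p-UPF1 IP), with 3 libraries each, all made from short RNA fragments. Both the input RNA and the recovered RNA were cut with RNase I. The labels number the replicates but do not say whether they are separate cultures, so the p-values below measure the spread between these libraries only.

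UPF1 is an RNA helicase at the centre of nonsense-mediated decay (NMD), and its phosphorylated form marks RNAs on which that pathway has been engaged. Zfp genes encode proteins with C2H2 zinc fingers, most often a row of fingers in a long last exon, joined by a short conserved linker. Many also carry a KRAB box, which recruits TRIM28 and through it SETDB1 and HP1 proteins to silence transposable elements and imprinted loci; others act in RNA binding, translation, cell division or development.

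Library totals were 26023968, 25184464 and 29857955 counts in the input libraries. The rIgG IP libraries had 474491, 205177 and 79010, and the p-UPF1 IP libraries had 5312526, 6032142 and 6246110. A gene needs 0.100 to 0.119 CPM (counts divided by the library total in units of 1e+06) to reach 3 counts in an input library, 0.480 to 0.565 in a p-UPF1 IP library and 6.32 to 38.0 in an rIgG IP library. These floors cover counting error only. The rIgG IP libraries are therefore the shallowest by far, and no member had 0 counts in an input library, whereas 30, 53 and 87 members had 0 counts in rIgG IP libraries 1, 2 and 3.

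The neuroblastoma label was checked against genes of sympathetic neuroblasts and neurons. The secretory granule gene Chgb had 1387, 1312 and 1282 counts in the input libraries, and the growth cone gene Stmn2 had 1313, 1214 and 1413. Tubb3, a neuronal tubulin, had 1363, 1254 and 1318, and Hand2, a transcription factor of the sympathetic lineage, had 300, 299 and 294. All 4 were therefore well counted in every input library. Th, which makes catecholamines, was low at 23, 17 and 17, Dbh had 13, 3 and 10, and the neurofilament gene Nefl had 0. Markers of other cell types were low in input. The 3 astrocyte markers summed to 2, 1 and 0 counts, with Gfap the most counted and Aqp4 at 0. The 3 microglia markers summed to 3, 4 and 3, with Cx3cr1 the most counted. The 3 oligodendrocyte markers summed to 53, 37 and 41, mostly Mbp, the 3 fibroblast markers to 21, 20 and 26, mostly Dcn with Col1a2 at 0, and the 2 endothelial markers to 40, 36 and 41, mostly Pecam1. The libraries are bulk, so for any input level fewer cells expressing a gene and less RNA per cell cannot be told apart.

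Together the members took 24907, 24464 and 27425 counts in the input libraries, which is 0.0957, 0.0971 and 0.0919% of the totals. Their share was 0.0778, 0.0868 and 0.0785% with rIgG and 0.140, 0.155 and 0.146% with p-UPF1. All 3 p-UPF1 IP shares lie above all 6 others. These shares depend on what fills the rest of each library, so the comparisons below are made gene by gene after scaling by the trimmed mean of M values (TMM), with edgeR's quasi-likelihood test. A gene is called enriched when its log2 fold change is above 1 with an adjusted p under 0.05, and depleted when it is below -1 with the same p.

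For the p-UPF1 IP against input all 130 members were tested. Of them 21 were enriched, beside 17.3% of all genes tested and 16.8% of genes with the same input minimum, and 48 were depleted, beside 26.5% and 31.1%. As shares of the members these are 16.2% and 36.9%. At any size of fold change 37 members, or 28.5%, were higher, beside 26.3% of all genes tested and 32.7% of genes with the same minimum. Lower were 66, or 50.8%, beside 35.7% and 48.9%. The enriched share and, among genes with the same minimum, the lower share are therefore near the background. After TMM scaling the depleted share is above both backgrounds. The median log2 fold change of the members was -0.48, beside -0.42 for all genes tested and -0.32 for genes with the same minimum, and the quartiles of the members were -1.38 and 0.51.

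Gene levels below are in TMM-scaled CPM, counts divided by the library total times its TMM factor in units of 1e+06. On that scale the 3 p-UPF1 IP libraries lay above all 3 input libraries for 41 members and below them for 73, and the groups overlapped for 16. Divided by library totals alone, an alternative chosen after the data were seen, these counts are 53, 54 and 23. No share over all genes stands beside these counts, so they describe the members only. Scaling moves the zero point of these values. With library totals in place of TMM the median of all genes tested moved up by 0.41, and the members split into 29 enriched and 32 depleted, in place of 21 and 48. The 8308 genes with the same minimum moved likewise, from 1395 enriched and 2585 depleted to 2130 and 1829. The size of the excess of depleted members thus depends on the scaling. Relative to the median of all genes tested the members stood at -0.07 under either scaling. All 21 enriched members kept their call in every alternative fit, and of the 48 depleted members 32 kept it with library totals.

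The threshold falls among genes with few counts. Zfp781 with 202 input counts lies just inside it, at a log2 fold change of -2.04 in the p-UPF1 IP over input, as do Zfp597 with 205 counts at -0.39 and Zfp626 with 205 counts at -0.27. With library totals Zfp597 and Zfp626 change sign, to 0.02 and 0.14. Just outside lie Zfp28 with 198 counts at -0.18, Zfp444 with 198 counts at -0.21 and Zfp787 with 199 counts at 1.45.

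A KRAB box was found in the annotated coding sequence of 56 members and not in that of 74, and 127 members had at least 1 matched C2H2 finger. KRAB members had a median log2 fold change of -0.72 in the p-UPF1 IP over input, with 8 enriched and 25 depleted, or 14.3% and 44.6%. Members with no KRAB box had a median of -0.33, with 13 enriched and 23 depleted, or 17.6% and 31.1%. Relative to the median of all genes tested these medians stood at -0.30 and 0.08, and relative to genes with the same minimum at -0.39 and -0.01. With library totals the medians became -0.31 and 0.07, with 9 enriched and 17 depleted KRAB members and 20 enriched and 15 depleted others. Library totals shift all genes tested in the same way, from 2919 enriched and 4480 depleted to 4108 and 3160, and relative to all genes tested the groups stood at -0.30 and 0.08 there as well.

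Zfp593, a homologue of a yeast ribosome assembly factor, had 120, 92 and 124 counts in the input libraries against 431, 525 and 446 in the p-UPF1 IP libraries. It was higher in each p-UPF1 IP library even as raw counts, although those libraries are shallower. Its mean was 4.77 ± 0.584 TMM-scaled CPM (± SD) in input and 69.3 ± 5.63 in the p-UPF1 IP, a log2 fold change of 3.86 ± 0.11 (± SE; adjusted p 1.63e-09), the largest of the family. Antisense to it, the annotated gene E130218I03Rik covers 77.9% of its exonic bases, and the sources used here do not give the strand setting of the counting, so its count is uncertain. E130218I03Rik itself had 3, 7 and 0 counts in input and none in the p-UPF1 IP.

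Zfp654 had 290, 240 and 424 counts in the input libraries against 664, 720 and 1052 in the p-UPF1 IP libraries. Replicate 3 was the highest in both groups, and the groups did not overlap in TMM-scaled CPM. Its log2 fold change was 3.15 ± 0.19 (adjusted p 2.05e-07). It also stood apart in the rIgG IP, described below.

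Zfp346, which binds double-stranded RNA, had 69, 69 and 71 counts in input against 90, 146 and 125 in the p-UPF1 IP. All 3 IP libraries were above all 3 input libraries, with a log2 fold change of 2.57 ± 0.12 (adjusted p 4.74e-08). Zfp740 had 394, 443 and 435 counts in input against 643, 692 and 649 in the p-UPF1 IP. Its replicates were close together in both groups, and its log2 fold change was 2.44 ± 0.09 (adjusted p 9.39e-09). Zfp507 had 143, 123 and 131 counts in input against 160, 192 and 162 in the p-UPF1 IP. It too separated fully, at 2.17 ± 0.10 (adjusted p 4.3e-08), with 28.3% of its exonic bases antisense to Gm26790.

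**Figure D1:**
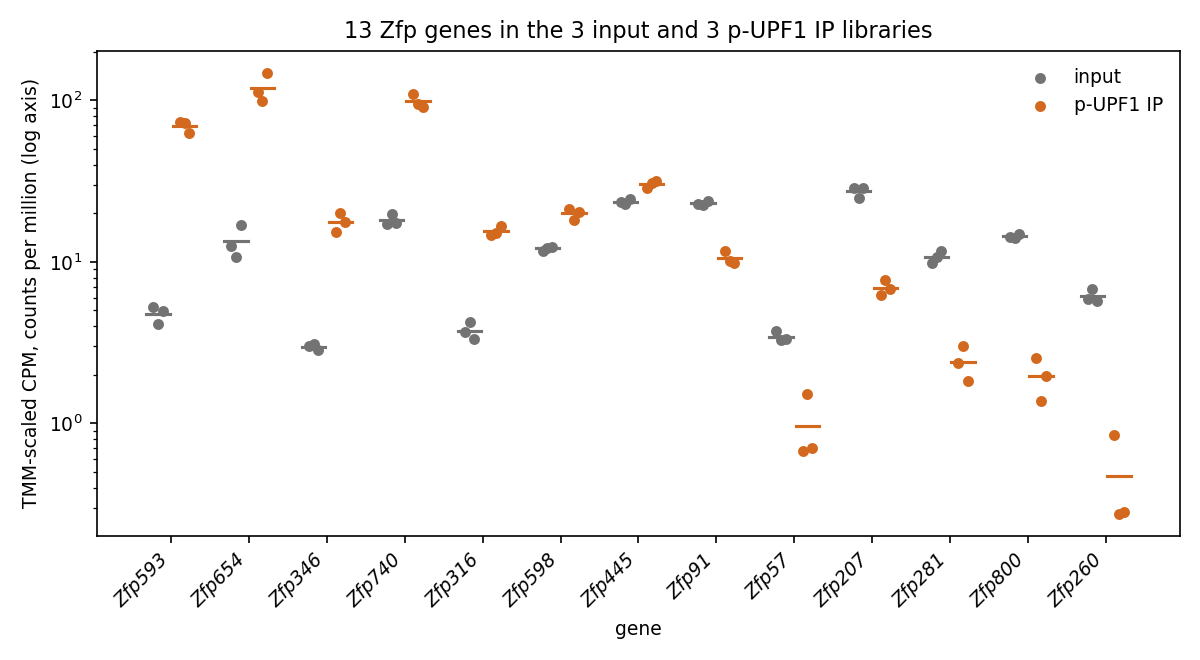
TMM-scaled CPM on a log axis for 13 Zfp genes, with 3 points per group for the input (grey) and p-UPF1 IP (orange) libraries and a bar at the group mean. The groups do not overlap for any of the 13 genes, and Zfp593 goes from a mean of 4.77 to 69.3 TMM-scaled CPM.

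Among KRAB members, Zfp316 led with 84, 95 and 83 counts in input against 87, 110 and 119 in the p-UPF1 IP. Its log2 fold change was 2.06 ± 0.12 (adjusted p 1.97e-07). Zfp777 had 79, 61 and 95 against 70, 100 and 86 counts, at 1.92 ± 0.15 (adjusted p 1.24e-06). Both are low in counts, and after scaling the groups of each separate. Zfp866 had 197, 196 and 199 against 169, 205 and 191 counts, at 1.73 ± 0.08 (adjusted p 3.72e-08). Its input libraries differ by only 3 counts. The other 5 enriched KRAB members are Zfp282, Zfp157, Zfp12, Zfp952 and Zfp212, between 1.09 and 1.41.

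The first 10 ranks also hold Zfp326 and Zfp263, which have no KRAB box by the criterion used here. Zfp326 is part of a complex that links transcript elongation to splicing. It had 109, 112 and 121 counts in input against 111, 133 and 127 in the p-UPF1 IP, at 1.91 ± 0.09 (adjusted p 3.56e-08). Zfp263 had 144, 139 and 133 against 114, 152 and 155 counts, at 1.80 ± 0.10 (adjusted p 1.13e-07). Both genes separate by group in TMM-scaled CPM. The rest of the enriched members with no KRAB box, Zfp821, Zfp553, Zfp219, Zfp664, Zfp516 and Zfp687, lie between 1.20 and 1.64.

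At the other end, Zfp260 had 136, 151 and 142 counts in input against 5, 2 and 2 in the p-UPF1 IP. It is nearly lost from the IP libraries, with means of 6.12 ± 0.551 and 0.468 ± 0.329 TMM-scaled CPM and a log2 fold change of -3.76 ± 0.30 (adjusted p 2.01e-06). Zfp433, a KRAB member, had 82, 65 and 106 against 4, 0 and 2 counts, at -3.55 ± 0.50 (adjusted p 0.000135). Of its sequence windows of 35 bases, 86.6% also occur in other genes, so its count is uncertain. Zfp930, also with a KRAB box, had 77, 63 and 103 against 4, 0 and 4 counts, at -3.09 ± 0.49 (adjusted p 0.000314). Replicate 2 of the p-UPF1 IP had 0 counts for both.

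Zfp800 had 326, 316 and 369 counts in input against 15, 10 and 14 in the p-UPF1 IP, at -2.89 ± 0.16 (adjusted p 1.23e-07). Zfp277 had 217, 257 and 252 against 5, 13 and 11 counts, at -2.85 ± 0.20 (adjusted p 8.29e-07). All of these IP libraries are below all input libraries after scaling. Zfp358, whose transcript with the longest coding sequence has 1 exon, had 79, 102 and 105 against 2, 4 and 7 counts, at -2.65 ± 0.31 (adjusted p 3.28e-05). The last 10 ranks close with Zfp948 at -2.43, Zfp62 at -2.33, Zfp655 at -2.26 and Zfp788 at -2.16, of which only Zfp62 has no KRAB box. Zfp655 is the best counted of these, with 465, 508 and 566 counts in input against 35, 30 and 27 in the p-UPF1 IP (adjusted p 2.76e-07).

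Of the KRAB members known for silencing, Zfp57 keeps imprints in the embryo. It had 86, 73 and 83 counts in input against 4, 11 and 5 in the p-UPF1 IP, at -1.80 ± 0.29 (adjusted p 0.000315). Zfp445, which acts at imprinted loci as well, had 537, 510 and 610 against 168, 224 and 224 counts. It went the other way, with all 3 IP libraries above input after scaling and a log2 fold change of 0.36 ± 0.08 (adjusted p 0.00199). Zfp809, which silences murine leukaemia virus, had 109, 87 and 94 against 12, 17 and 18 counts, at -0.83 ± 0.19 (adjusted p 0.00345). Zfp568, a repressor of a placental Igf2 transcript, had 242, 292 and 313 against 85, 79 and 105 counts. Its groups overlapped in TMM-scaled CPM, at 0.14 ± 0.13 (adjusted p 0.365), but with library totals all IP libraries lay above input, at 0.55 (adjusted p 0.00336). From the same list, Zfp932, Zfp825, Zfp992, Zfp961, Zfp708 and Zfp819 had 175, 143, 77, 75, 5 and 1 input counts and are not members.

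Among members that act on RNA or translation, Zfp598 is the ubiquitin ligase that senses collided ribosomes. It had 270, 273 and 310 counts in input against 125, 133 and 145 in the p-UPF1 IP. After scaling the IP libraries were the higher ones, at 0.72 ± 0.09 (adjusted p 3.96e-05), and with library totals the value was 1.12, past the threshold for an enriched call. Zfp622, which takes part in maturation of the large ribosomal subunit, had 159, 183 and 180 against 62, 54 and 54 counts. Its groups overlapped in TMM-scaled CPM, at 0.18 ± 0.15 (adjusted p 0.301), and separated with library totals, at 0.59 (adjusted p 0.00583). Zfp106, an RNA-binding protein needed by motor neurons, had 914, 906 and 985 against 239, 311 and 305 counts, at 0.08 ± 0.07 (adjusted p 0.335), and 0.48 with library totals (adjusted p 0.000524). Its direction reverses with no filter on low counts, and 26.1% of its exonic bases are antisense to Gm26899.

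Zfp207, which helps load the spindle checkpoint protein Bub3, had 657, 554 and 714 counts in input against 37, 56 and 48 in the p-UPF1 IP. It was lower in every IP library, at -1.98 ± 0.11 (adjusted p 1.4e-07). Zfp638, which works with the HUSH complex on unintegrated retroviral DNA, had 563, 529 and 610 against 112, 135 and 153 counts, at -0.30 ± 0.08 (adjusted p 0.0109), but at 0.11 with library totals. Zfp318 had 190, 167 and 169 against 31, 34 and 42 counts, at -0.51 ± 0.14 (adjusted p 0.0105), and -0.10 with library totals (adjusted p 0.601). Together with Zfp346 and Zfp326, these 8 members range from -1.98 to 2.57. Zfp385a, Zfp830 and Zfp385b, with 106, 103 and 1 input counts, were below the minimum.

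For transcription and development, Zfp281, a factor of pluripotent cells, had 227, 239 and 291 counts in input against 14, 22 and 13 in the p-UPF1 IP. It was low in all 3 IP libraries, at -2.15 ± 0.17 (adjusted p 1.76e-06). Zfp292 had 494, 431 and 483 against 40, 58 and 61 counts, at -1.36 ± 0.11 (adjusted p 1.64e-06). Zfp91, a ubiquitin ligase of the noncanonical NF-kappaB pathway, had 522, 507 and 590 against 69, 74 and 70 counts, at -1.13 ± 0.09 (adjusted p 1.95e-06). Zfp110, a partner of the neurotrophin receptor p75, had 91, 107 and 93 against 12, 13 and 11 counts, at -1.22 ± 0.21 (adjusted p 0.00048). With library totals Zfp292, Zfp91 and Zfp110 stood at -0.95, -0.72 and -0.82, short of the depleted call.

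Zfp423, which acts in the cerebellum and in fat cell precursors, had 254, 298 and 293 counts in input against 143, 150 and 138 in the p-UPF1 IP. It was higher in all IP libraries after scaling, at 0.83 ± 0.11 (adjusted p 7.63e-05), and 1.23 with library totals. Zfp219 had 75, 76 and 78 against 63, 58 and 64 counts, at 1.49 ± 0.14 (adjusted p 7.73e-06), with 12.7% of its exonic bases antisense to Tmem253. Zfp217 had 80, 66 and 67 against 27, 31 and 38 counts, at 0.64 ± 0.18 (adjusted p 0.00982), and 1.04 with library totals. Zfp148 was lower at -0.46 ± 0.09 (adjusted p 0.00141), but at -0.05 with library totals (adjusted p 0.689), and Zfp462 had no call at -0.10 ± 0.09 (adjusted p 0.379), with 0.31 under library totals. Of the listed genes below the minimum, Zfp90, Zfp335, Zfp703, Zfp143 and Zfp503 had 155, 151, 151, 141 and 135 input counts, Zfp42 had 1, and Zfp521 and Zfp536 had 0.

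Per kilobase of the longest protein-coding transcript, the highest input levels were 664 counts for Zfp207, 526 for Zfp869, 473 for Zfp131, 424 for Zfp706, 403 for Zfp365 and 370 for Zfp655. These 6 best-counted members had p-UPF1 IP over input log2 fold changes of -1.98, 0.32, -0.83, -0.85, 0.07 and -2.26 in that order. The value of Zfp365 reverses with no filter on low counts. None of the 6 was enriched. Spearman's rho between input counts and the log2 fold change was 0.0068 over the 130 members. Over 7651 protein-coding genes with the same minimum it was -0.21. Both are a description across genes that share libraries and are not independent, with input counts in both quantities.

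Over the rIgG IP, a comparison independent of the input counts that chose the members, 129 were tested. Enriched were 21, beside 17.5% of all genes tested and 21.3% of genes with the same minimum. Depleted were 4, beside 5.34% of all genes tested and 7.05% of genes with the same minimum. At 16.3% and 3.10% of the members tested, neither share exceeds its background. The control is shallow for this family, since 74 members had at most 3 counts summed over the 3 rIgG IP libraries and the median member had 3. The median log2 fold change was 0.76, beside 0.89 for all genes tested and 0.58 for those with the same minimum, and 0.38 with the 14 members at 0 in every rIgG IP library placed at 3 counts over the group. The median of all genes tested in this comparison moved by -0.27 with RLE factors, by -0.07 with library totals and by -0.64 with DESeq2, which also changes the test, while the members stayed 0.17 to 0.19 above the genes with the same minimum. Relative to all genes tested the members stood at -0.13 here and at 0.20 by DESeq2, a change of sign. DESeq2 called 13 members enriched and 7 depleted. All genes tested moved in the same way, from 2102 enriched and 643 depleted to 1199 and 914 by DESeq2. Genes with the same minimum went from 1728 and 573 to 1033 and 833.

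Of the 21 members enriched over the rIgG IP, 15 were also enriched over input, a comparison that uses the same p-UPF1 IP libraries. The matching share over all genes is not given, so this overlap is a description only. Zfp593 had 2, 0 and 0 rIgG IP counts and a log2 fold change of 4.97 ± 0.55 over the rIgG IP (adjusted p 1.81e-07). Zfp740 had 5, 5 and 0 counts there and 3.17 ± 0.37 (adjusted p 5.84e-07). Both were therefore far above either control. Zfp219 had 0 counts in all 3 rIgG IP libraries and reached at least 2.78-fold with p-UPF1 (adjusted p 0.00535). For Zfp106, with 11, 3 and 2 rIgG IP counts, the value was 1.27 ± 0.33 (adjusted p 0.00604), although over input it had no call after TMM. The 4 depleted members were Zfp277, Zfp575, Zfp207 and Zfp871, at -2.61, -2.30, -1.23 and -1.07. These calls rest on few rIgG IP counts, and 2 to 5 were made with each library left out, an alternative chosen after the data were seen.

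Recovery with rabbit IgG over input was called for 2 members, or 1.54%, as enriched, beside 0.584% of all genes tested, and for 0 as depleted, beside 0.313%. By DESeq2 the counts were also 2 and 0, and at an unadjusted p under 0.05 in edgeR's quasi-likelihood test 25 members, or 19.2%, had a log2 fold change below -1, beside 7.92% of all genes tested and 14.5% of genes with the same minimum. Zfp654 was the only member with at least 3 counts in every rIgG IP library, with 37, 20 and 9. Its rIgG IP over input log2 fold change was 2.67 ± 0.29 (adjusted p 0.000483). Its p-UPF1 IP over rIgG IP value was 0.74 ± 0.24 (adjusted p 0.0268), so the control IP recovered it above input as well. Zfp575, named here after its values were seen, had 13, 8 and 1 rIgG IP counts, at 1.88 ± 0.37 over input (adjusted p 0.0375). That call is lost without rIgG IP replicate 1 (adjusted p 0.258) or replicate 2 (adjusted p 0.186), where the log2 fold change was 1.72 and 1.71, and with a replicate block, at 1.78 (adjusted p 0.117).

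The members differ widely in base composition, from 34.6 to 62.1% GC in the transcript with the longest coding sequence. The 43 members with the lowest GC content, up to 41.7%, had a median log2 fold change of -1.25 in the p-UPF1 IP over input, with 2 enriched and 27 depleted, or 4.65% and 62.8%. The next 44, up to 49.1%, had a median of -0.71, with 5 enriched and 17 depleted, or 11.4% and 38.6%. The 43 with the highest GC content had a median of 0.64, with 14 enriched and 4 depleted, or 32.6% and 9.30%. Recovery over input thus followed GC content across the family.

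The same gradient is present outside the family. Protein-coding genes with the same input minimum within those 3 GC ranges had medians of -1.22, -0.61 and 0.24, over 696, 2805 and 3881 genes. In the lowest range 57.5% of them were depleted and 1.58% enriched, in the middle 36.5% and 6.60%, and in the highest 19.8% were depleted and 25.4% enriched. Spearman's rho between GC content and log2 fold change was 0.56 over the 130 members and 0.40 over 7643 protein-coding genes, as a description across genes of shared libraries. Zfp654 at 36.9% GC and Zfp358 at 57.0% lie off the trend.

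**Figure D2:**
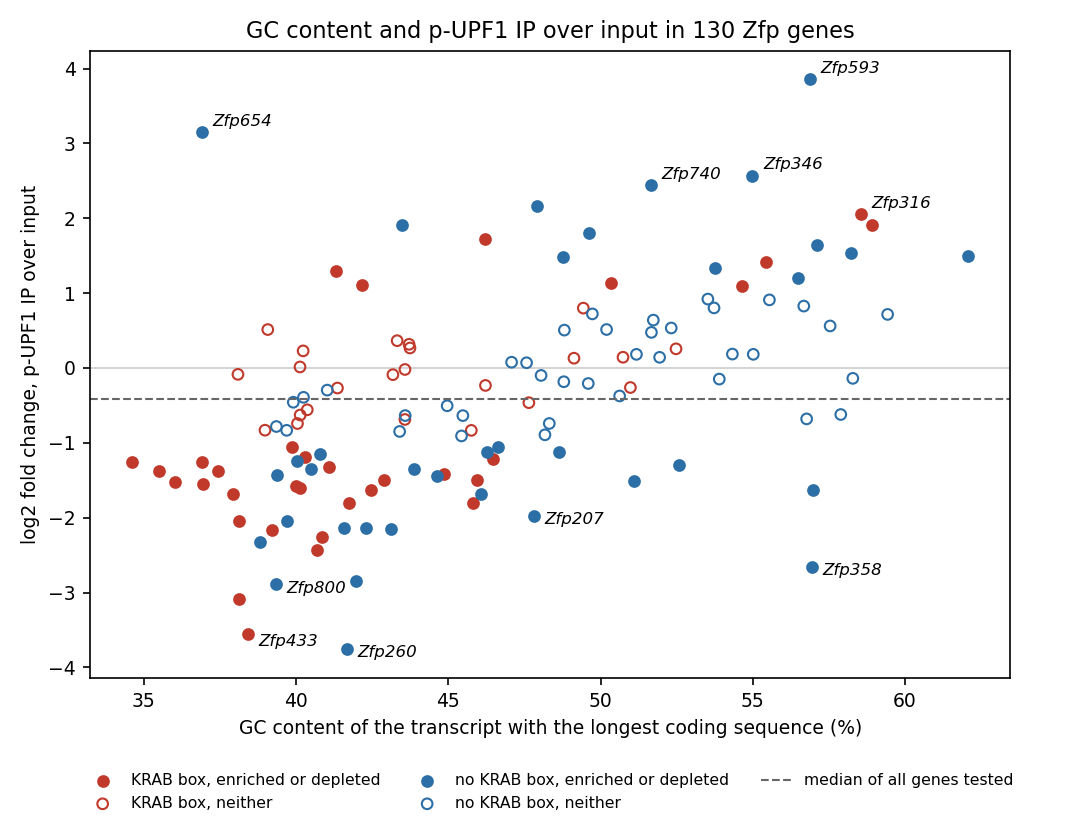
Log2 fold change of the p-UPF1 IP over input (vertical axis) against the GC content in percent of the transcript with the longest coding sequence (horizontal axis), 1 point per Zfp gene, red with and blue without a KRAB box, filled where enriched or depleted. The dashed line is the median of all genes tested, -0.42, and 27 of the 43 genes with the lowest GC content are depleted.

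KRAB members are poorer in GC, with a median of 41.6% beside 48.7% for the others. Split at the median GC content of all members, the 39 KRAB members in the lower part had a median log2 fold change of -1.25 and the 26 others there -1.20. In the upper part the 17 KRAB members had 0.14 and the 48 others 0.18. Within either part the medians of members with and without a KRAB box lay close together.

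The single long coding exon of the family gave a further split. In 76 members at least 75% of the coding bases lie in 1 exon, and these had a median log2 fold change of -1.12, with 7 or 9.21% enriched and 40 or 52.6% depleted. The 54 members with a more divided coding sequence had a median of 0.14, with 14 or 25.9% enriched and 8 or 14.8% depleted. In the lower GC part the medians were -1.38 for 49 members of the first kind and -0.57 for 16 of the second, and in the upper part -0.15 for 27 and 0.38 for 38. The first kind was still poorer in GC in the lower part, at a median of 40.1% beside 43.2%. In the upper part it had 51.1% beside 51.4%. The same order held among protein-coding genes with the same minimum, at -0.86 for 616 genes, of which 11.9% were enriched and 45.9% depleted, and -0.24 for 7027, with 16.5% and 28.0%. Across members rho with the share of coding bases in the longest exon was -0.38, beside -0.13 over the 7643 protein-coding genes. With the number of exons it was 0.25, beside 0.23, with the number of fingers -0.15, beside -0.0067, and with the length of the 3′ UTR 0.04, beside 0.15. Members with 10 or more fingers, 66 in all, had a median of -0.72, and 38 members with 5 to 9 fingers had -0.30.

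The finger linker of threonine, glycine, glutamate, lysine and proline bears on how well short fragments can be told apart between members. An in-frame linker was found in 81 members, 47 of the 56 with a KRAB box and 34 of the others, in 408 copies. The 15 bases that encode it were spelled in 134 ways, the most used of which made up 31 copies in 15 members. With their neighbours, windows of 30 bases around the linker gave 390 different sequences, of which only 8 occurred in more than 1 member. The sequence shared by the most members, Zfp945, Zfp946 and Zfp985, all with a KRAB box, is printed 5′ to 3′ on the coding strand with the linker codons in capitals, from GENCODE M21 on GRCm38.
linker: agaattcatACAGGAGAGAAACCTtacaaa
It lies in the last exon of each gene, at chr17:22851451-22851480 on the minus strand in Zfp945, at chr17:22455218-22455247 on the plus strand in Zfp946 and at chr4:147583784-147583813 on the plus strand in Zfp985. All 3 genes were depleted, at -1.38, -1.55 and -1.53. Their GC content is 35.5, 36.9 and 36.0% in that order. Within the lowest GC range of the members, described above, 62.8% of members and 57.5% of protein-coding genes with the same minimum were depleted. A link between the shared linker sequence and depletion was not tested.

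Sequence shared with other genes was low for most of the family. In 73 members under 1% of the 35-base windows also occur in another gene, and in 5 members, Zfp781, Zfp433, Zfp617, Zfp985 and Zfp979, the share is 20% or more. All 5 carry a KRAB box, and all 5 were depleted, with a median log2 fold change of -1.53, so 5 of the 48 depleted calls are uncertain. Their GC content, 34.6 to 41.1%, lies within the lowest GC range described above. In that range 62.8% of members and 57.5% of protein-coding genes with the same minimum were depleted. A link between shared sequence and depletion was not tested. An alternative chosen after the data were seen left out these 5, and the median of the remaining 125 was -0.39. Exonic overlap of 10% or more with another gene was found on the same strand for 4 members and antisense for 13.

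By chromosome the members are given as counts, with no test between chromosomes, for the 6 that hold 9 or more. Among genes with the same minimum on all chromosomes 16.8% were enriched and 31.1% depleted, at a median of -0.32. Chromosome 7 holds 25 members, at a median log2 fold change of -0.27 with 2 enriched and 9 depleted, and chromosome 6 holds 11, at -0.30 with 3 and 2. On chromosome 5 there are 10, at 0.82 with 5 and 2, and on chromosome 8 there are 10, at -0.30 with 2 and 4. On chromosome 17 there are 9, at -1.38 with 1 and 6, and on chromosome 4 there are 9, at -0.10 with 1 and 3.

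By transcript, 431 of the 735 transcripts of members entered the test of p-UPF1 IP against input, at least 1 for every member. Enriched were 32, or 7.42%, beside 8.55% of all transcripts tested, and depleted were 75, or 17.4%, beside 16.2%. Both shares are near the background. The enriched transcripts belong to 26 members and the depleted ones to 60, with 8 members in both groups. Fragments this short are often shared between the transcripts of a gene, and the biological coefficient of variation was 96.7% for transcripts against 12.4% for genes, so assignment to a transcript is less certain than the summed count. With the replicate number as a block only 7 members had an enriched transcript, in place of 26. These counts of members have no share over all genes beside them, with or without the block, so they are a description only. Of the 5 leading transcripts and the 5 called NMD-type transcripts described next, only that of Zfp740 kept its call with the block (adjusted p 0.0222). The log2 fold changes stayed about as large without and with the block. They were 9.75 and 9.75 for Zfp777, 6.76 and 7.35 for Zfp553 and 1.94 and 1.91 for Zfp263. The other calls were therefore lost through their p-values.

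ENSMUST00000119800.7 of Zfp740 had 0 counts throughout the input group against 545, 479 and 524 with p-UPF1. That is at least 1789-fold higher, against 3 counts over the input group (adjusted p 0.000419). In input the counts of Zfp740 went mainly to ENSMUST00000119168.7, with 158, 317 and 265, which had 69, 152 and 77 in the p-UPF1 IP and no call (adjusted p 0.771). The first transcript contains a coding exon at chr15:102208753-102208876 that the second skips, and it lacks the first exon of the second at chr15:102203659-102203802. The summed count of the gene was enriched whichever transcript is assigned.

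**Figure D3:**
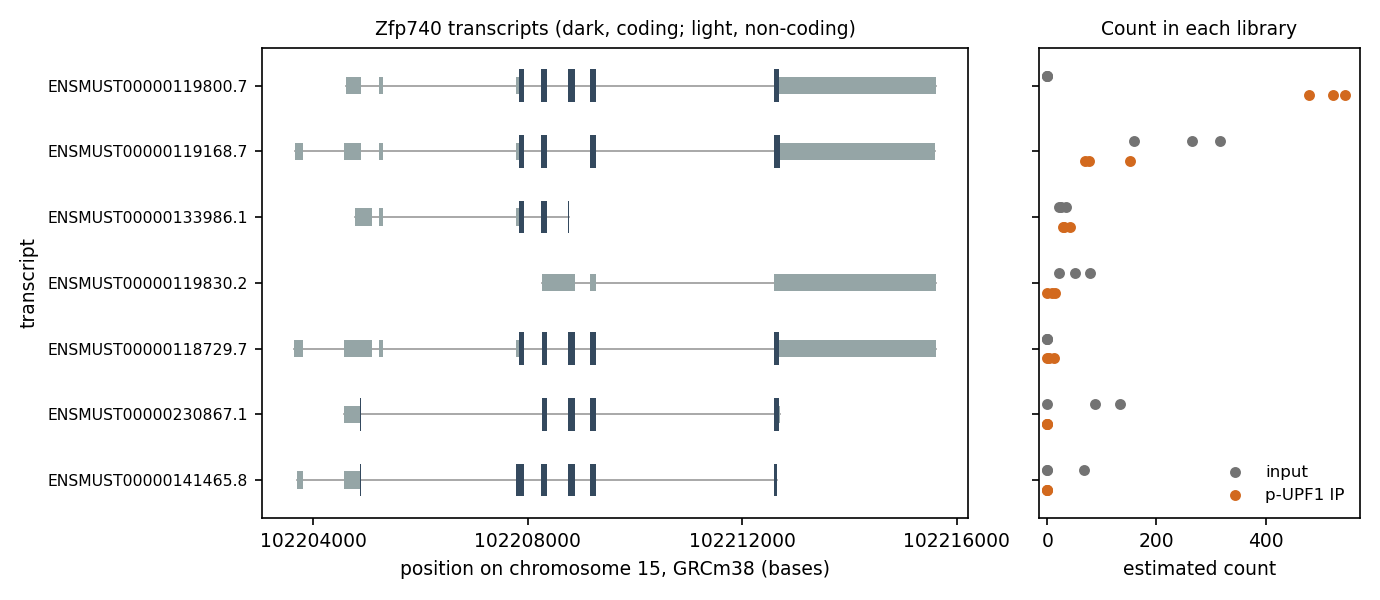
Left, exons of the 7 tested Zfp740 transcripts on chromosome 15 of GRCm38 in bases, with coding parts dark; right, their estimated counts in each of the 3 input (grey) and 3 p-UPF1 IP (orange) libraries. ENSMUST00000119800.7 has 0 counts in all input libraries and 479 to 545 in the p-UPF1 IP libraries.

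Zfp777, Zfp512 and Zfp652 each had such a transcript as well. ENSMUST00000114583.7 of Zfp777 had 0 input counts against 44, 64 and 62 in the p-UPF1 IP, at least 196-fold higher (adjusted p 0.00116). ENSMUST00000202244.3 of Zfp512 had 0 against 36, 53 and 43, at least 153-fold higher (adjusted p 0.0016). ENSMUST00000091565.4 of Zfp652 had 0 against 11, 23 and 32, at least 76.3-fold higher (adjusted p 0.00746). Zfp652 as a gene was depleted at -1.13, and its main transcript ENSMUST00000107717.7 had 373, 377 and 340 counts in input against 20, 39 and 26 in the p-UPF1 IP. ENSMUST00000056232.6 of Zfp553 had 0, 4 and 0 against 53, 65 and 60 counts, at 6.76 ± 1.25 (adjusted p 0.0131). In the rIgG IP libraries the Zfp777 transcript had 3, 0 and 0 counts, that of Zfp512 had 2, 0 and 0 and that of Zfp553 had 0, 4 and 0. The Zfp652 and Zfp740 transcripts had 0 there. For transcripts with rIgG IP counts in such shallow libraries, the values over input do not separate p-UPF1 from rIgG recovery.

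Transcripts annotated as NMD targets were tested in 23 members, 29 in all. Of these, 2 or 6.90% were enriched and 3 or 10.3% depleted, beside 10.1% and 12.9% of the 3050 such transcripts tested over all genes. ENSMUST00000161630.7 of Zfp263 had 69, 60 and 63 counts in input against 53, 116 and 99 in the p-UPF1 IP, at 1.94 ± 0.26 (adjusted p 0.00436). ENSMUST00000206184.1 of Zfp180 had 11, 23 and 17 against 20, 24 and 29, at 1.99 ± 0.41 (adjusted p 0.0186). The depleted ones belong to Zfp938, Zfp410 and Zfp608. Over all members, transcripts of this type took 2.45 to 2.94% of the input counts and 3.27 to 4.99% of the p-UPF1 IP counts, groups that do not overlap. Their share was 1.12 to 3.25% of the few rIgG IP counts. In the p-UPF1 IP libraries the Zfp263 transcript alone held 53, 116 and 99 of 243, 330 and 454 such counts. In input it held 69, 60 and 63 of 611, 720 and 757. The separation thus leans on 1 transcript and does not describe the family as a whole. Retained-intron transcripts took 4.62 ± 0.096% of the members' counts in input and 4.03 ± 0.47% in the p-UPF1 IP. Of 60 such transcripts of members tested, 2 or 3.33% were enriched and 6 or 10% depleted, beside 7.64% and 11.1% of 7765 over all genes. For the summed shares 3 backgrounds were drawn, the last 2 after the data were seen. In all genes with the same minimum, where protein-coding types hold only 12.3% of the input counts against 87.8% in the members, NMD types took 18.4 ± 1.3% in input and 22.8 ± 0.70% with p-UPF1. In the protein-coding genes among them the shares were 56.9 ± 2.2% and 52.1 ± 0.46%, with 55.5% of the input counts from Lars2 alone. Without Lars2 they were 3.68 ± 0.18% and 4.58 ± 0.060%, and retained-intron types took 5.45 ± 0.098% and 7.51 ± 0.097%. The direction of the NMD share in the background thus depends on the pool chosen.

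The partners through which KRAB proteins silence were listed as 38 genes, of which 36 were tested. Over input, 4 or 11.1% were enriched and 13 or 36.1% depleted with p-UPF1, beside 17.3% and 26.5% of all genes tested, with a median of -0.27. The list was not held to the input minimum. Library totals, which raise the median of all genes tested by 0.41, gave 9 enriched and 7 depleted with a median of 0.14, and relative to all genes tested the list stood at 0.15 with either scaling. Trim28, the direct partner of the KRAB box, had 1069, 1084 and 1213 counts in input against 246, 269 and 325 in the p-UPF1 IP, at -0.21 ± 0.09 (adjusted p 0.0571). The methyltransferase gene Setdb1 had 325, 289 and 343 against 143, 198 and 157 counts and was higher in all IP libraries after scaling, at 0.85 ± 0.09 (adjusted p 2.08e-05). Enriched were Uhrf1 at 2.28, Dnmt3b at 1.34, Ehmt2 at 1.17 and Daxx at 1.11, genes for DNA methylation, histone methylation and histone deposition. The HP1 genes Cbx5 and Cbx3 were depleted at -2.05 and -1.78, whereas the third, Cbx1, had no call at 0.23. Over the rIgG IP 8 of the 36, or 22.2%, were enriched, beside 17.5% of all genes tested, and 1 or 2.78% was depleted, beside 5.34%.

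Other zinc finger families with the same input minimum are given by their medians and calls, with no test between families, beside 16.8% enriched and 31.1% depleted among all genes with that minimum. The 15 other genes with a KRAB box had a median of -0.66 in the p-UPF1 IP over input, with 1 enriched and 5 depleted, beside -0.72 for the KRAB members. The 20 Zbtb genes had -0.64, with 3 and 9, and the 12 Klf and Sp genes had -0.53, with 3 and 3. The 9 Zkscan and Zscan genes had -0.29, with 1 and 1, and the 12 Zc3h genes, whose C3H fingers bind RNA in many cases, had -0.05, with 2 and 2.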

How the data were processed

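The authors deposited estimated counts per transcript for 9 libraries, which are whole numbers in the table. The submitters' processing notes name bcl2fastq 2.19.0, STAR 2.7.0f, Salmon 0.13.1, DESeq2 1.22.1, R 3.5.1 and GRCm38.p6. Counts were summed per gene symbol over the whole table. Each pair of groups was fitted with edgeR 4.0.16 in R 4.3.3 on its own 6 libraries, by TMM and the quasi-likelihood test, for features with a summed count of at least 10, and p-values were adjusted by Benjamini-Hochberg over all features tested. Calls needed a log2 fold change beyond 1 or -1 and an adjusted p under 0.05. The procedure was also run on simulated data, with results that are not given here. Alternatives used DESeq2 1.42.0, RLE factors, library totals, other filters, all 9 libraries, a replicate block and each library left out.

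Of 140658 transcripts 139921 matched GENCODE M21 (GRCm38). A KRAB box was called where 11 of 15 conserved positions matched. Windows of 35 bases were compared between genes.

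Named genes are the 10 highest and 10 lowest members, the 6 with most input counts per kilobase, those at the threshold, those with 3 counts in every rIgG IP library, members with known roles and the 5 leading transcripts. The members and lists were chosen with earlier results of these data known.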

Additional observations from a re-analysis of the deposited data

How the results depend on the processing

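The 21 members called enriched over input stayed 21 or 22 with each library left out, and became 37 at a log2 threshold of 0, 38 of 201 members at an input minimum of 100, and 7 of 63 at 400. Of the depleted members, 48 became 46 to 48 with each library left out and 21 at an input minimum of 400. Over the rIgG IP the 21 enriched members became 13 by DESeq2, 12 at an input minimum of 400 and 15 to 21 with each library left out. No share over all genes is given at the minimums of 100 and 400, so the counts there describe the members only. Among all genes tested DESeq2 moved the enriched calls from 2102 to 1199 and the depleted calls from 643 to 914. The 4 members depleted over the rIgG IP became 7 by DESeq2, 2 with no filter on low counts and 2 to 5 with each library left out. They were 2 without p-UPF1 IP replicate 1 or 3 or without rIgG IP replicate 1 or 2, alternatives chosen after the data were seen. In the rIgG IP over input the 2 enriched members became 1 without rIgG IP replicate 1 or without rIgG IP replicate 2, where Zfp575 lost its call. Replicate numbers show little pairing of the libraries, with correlations of -0.027 to 0.057 between libraries of the same number. As a block they gave 21 members enriched over input, 15 enriched and 2 depleted over the rIgG IP, 1 in the rIgG IP over input, and 7 in place of 26 members with an enriched transcript. No share over all genes is given for the fits with the block.

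The median log2 fold change of the members over input, -0.48, was -0.47 with RLE factors, -0.078 with library totals, -0.47 by DESeq2, -0.56 with no filter on low counts, -0.46 with filterByExpr, -0.46 with all 9 libraries in 1 fit and -0.50 to -0.43 with each library left out. It was -0.37 at an input minimum of 100, -0.46 at 400, -0.41 and -0.45 with members chosen on input library 1 or 2 and fitted on the others, and -0.39 without the genes that share 20% or more of their windows, an alternative chosen after the data were seen. Members with all p-UPF1 IP libraries above input went from 41 to 53 with library totals and those below from 73 to 54, an alternative chosen after the data were seen. These counts have no share over all genes beside them. With library totals the sign reversed for Zfp462 (0.31), Zfp597 (0.018), Zfp626 (0.14) and Zfp638 (0.11), and with no filter for Zfp106 (-0.0013) and Zfp365 (-0.0084). Of 28 named members called enriched or depleted 25 kept that call in every alternative. Many of them were named for having the highest or lowest log2 fold changes, so this count does not describe the family. Over all members, every one of the 21 enriched calls over input and 31 of the 48 depleted calls were kept in every alternative fit. Whether the replicates are separate cultures, the strand setting of the counting and the part of base composition in recovery were not tested.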
